A study of Mus musculus with 30 samples.

Results

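The genes described here encode 47 proteins that hepatocytes make and release into plasma: carriers and hormone-binding proteins, clotting factors, protease inhibitors, complement components and acute phase proteins. They were chosen by name, as rows of the hepatocyte count table whose gene symbol is on the list, and all 47 were found among the 24453 genes of that table. They fall into 5 groups by role, with 14 carriers and transport proteins, 11 coagulation proteins, 12 anticoagulant, fibrinolysis and protease inhibitor genes, 6 complement genes and 4 acute phase genes. Polyadenylated RNA had been sequenced from primary mouse hepatocytes after exposure to desmosterol at 10 uM, DMHCA at 1 uM, MePipHCA at 1 uM, GW3965 at 1 uM, T0901317 at 1 uM or vehicle, with 2 replicates per group. Thioglycollate-elicited mouse macrophages received the same 6 treatments, with 3 replicates per group. All groups, vehicle included, spent the 24 h before exposure in 10% serum depleted of lipids, with mevastatin (10 uM), which blocks the mevalonate pathway, and mevalonate (50 uM), and the exposure itself lasted 18 to 20 h without lipid in the serum. Vehicle was labelled DMSO / EtOH. Hepatocytes were in Hepatozyme and macrophages in RPMI-1640, and strain, sex and age are not given in the sources used here. Nothing states that replicates came from separate animals or cultures, so p-values reflect the spread among these libraries alone, and that spread may be technical.

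Plasma proteins are the main secreted product of the liver: albumin carries fatty acids and drugs, transferrin carries iron, fibrinogen and the vitamin K dependent factors form clots, and the complement proteins mark microbes. Their genes are switched on in hepatocytes by liver-enriched transcription factors such as HNF1, HNF4 and the C/EBP family, and cytokines of the acute phase response raise some of them (haptoglobin, fibrinogen, serum amyloid A) through STAT3 and NF-kB. The ligands act on the liver X receptors (LXR), nuclear receptors that sense sterols. Desmosterol is a late intermediate of cholesterol synthesis, DMHCA and MePipHCA are synthetic cholenamide sterols that differ in the amine of the side-chain amide, and GW3965 and T0901317 are synthetic LXR agonists.

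The 3 fibrinogen genes are shown first because the 3 chains make 1 protein from neighbouring genes, and 2 of them (Fga and Fgb) are among the members called between groups. In the mouse genome build mm10 the counted transcripts lie at chr3:83026153-83033617 on the plus strand (Fga, the alpha chain), chr3:83042305-83049790 on the minus strand (Fgb, the beta chain) and chr3:83007896-83015049 on the plus strand (Fgg, the gamma chain). The gene of ceruloplasmin, Cp, lies on the same chromosome at chr3:19957054-19992998 on the plus strand. Their promoters are printed from 250 bases before to 50 bases after the annotated start, 5′ to 3′ on the gene's strand, from RefSeq on GRCm38.p6, the same assembly as mm10. Capitals mark matches, on either strand, to TTNNGNAA (a C/EBP-type motif) or GTTAAT (an HNF1-type motif). No match of one motif overlapped a match of the other in the members' promoters. The Fgb and Fgg starts used in that table lie 73 and 172 bases from the start of the counted transcript.
Fga, chr3:83025903-83026202, plus strand: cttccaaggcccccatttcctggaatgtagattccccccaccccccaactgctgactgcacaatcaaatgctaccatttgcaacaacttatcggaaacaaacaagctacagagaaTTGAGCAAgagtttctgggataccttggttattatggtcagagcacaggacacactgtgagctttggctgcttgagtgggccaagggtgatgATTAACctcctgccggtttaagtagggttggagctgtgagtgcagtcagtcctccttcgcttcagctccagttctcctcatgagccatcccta
Fgb, chr3:83049814-83050113, minus strand: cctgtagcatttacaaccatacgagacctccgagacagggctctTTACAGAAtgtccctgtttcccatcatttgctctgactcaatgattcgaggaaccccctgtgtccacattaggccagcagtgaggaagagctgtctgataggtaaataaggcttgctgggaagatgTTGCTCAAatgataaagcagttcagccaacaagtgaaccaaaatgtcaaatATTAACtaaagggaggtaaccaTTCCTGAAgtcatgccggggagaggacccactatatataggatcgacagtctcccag
Fgg, chr3:83007474-83007773, plus strand: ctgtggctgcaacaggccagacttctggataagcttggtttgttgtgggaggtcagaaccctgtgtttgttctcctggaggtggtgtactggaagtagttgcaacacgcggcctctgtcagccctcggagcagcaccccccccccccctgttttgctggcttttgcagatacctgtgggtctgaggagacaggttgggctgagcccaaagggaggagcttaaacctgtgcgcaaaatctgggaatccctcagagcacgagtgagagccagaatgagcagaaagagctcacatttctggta
Cp, chr3:19956804-19957103, plus strand: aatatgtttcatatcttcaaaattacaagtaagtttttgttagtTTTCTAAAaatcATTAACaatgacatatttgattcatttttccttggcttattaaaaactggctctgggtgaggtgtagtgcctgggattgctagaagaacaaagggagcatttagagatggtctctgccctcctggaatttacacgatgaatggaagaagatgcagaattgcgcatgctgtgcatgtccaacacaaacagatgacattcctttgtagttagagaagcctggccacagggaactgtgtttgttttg
The Fga window held 1 match of each motif, the Fgb window 3 C/EBP-type matches and 1 HNF1-type match, the Cp window 1 of each, and the Fgg window neither. Promoter entries were matched for 35 of the 47 members. GTTAAT was in 12 of these 35 windows (34.3%), against 7.1% of all 32851 promoters of the table, and TTNNGNAA was in 23 (65.7%), against 40.7%. A STAT-type motif, TTCNNNGAA, was in 6 member windows (17.1%, Fga and Fgb among them), against 8.3% of all promoters, and it overlapped no C/EBP-type match. TGATGNAA (ATF4-type) was in 2 (5.71%), against 3.97%, and CAAAGTCCA (HNF4-type) in 0 of 35, against 0.475%. These matches describe letters in a window and were not tested.

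The hepatocyte libraries held 6.63 to 18.63 M counts over 13983 to 15118 detected genes, and the macrophage libraries 3.86 to 15.69 M over 13484 to 15814. The hepatocyte library with the fewest counts was vehicle replicate 2, at 6.63 M, which every comparison with vehicle uses. Vehicle replicate 1 held 12.85 M, and all other hepatocyte libraries held 11.05 M or more. In hepatocytes the 47 genes together took 4.71% to 5.801% of all counts, and albumin alone 1.90% to 2.26% on average over a group. The summed share averaged 5.28 ± 0.49% with desmosterol, 5.27 ± 0.193% with DMHCA, 4.89 ± 0.257% with MePipHCA, 5.52 ± 0.156% with GW3965, 5.21 ± 0.301% with T0901317 and 5.44 ± 0.517% with vehicle (SD, n = 2 each). The second MePipHCA library was the lowest of the 12, and the range of every ligand group overlapped that of vehicle or lay inside it. Carriers were the largest part in every library. Coagulation genes took 0.468% and 0.472% with desmosterol, 0.41% and 0.46% with DMHCA, 0.322% and 0.304% with MePipHCA, 0.369% and 0.384% with GW3965 and 0.32% and 0.378% with T0901317, against 0.417% and 0.42% with vehicle. The MePipHCA, GW3965 and T0901317 libraries lay below both vehicle libraries, and the desmosterol libraries above them.

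**Figure D1:**
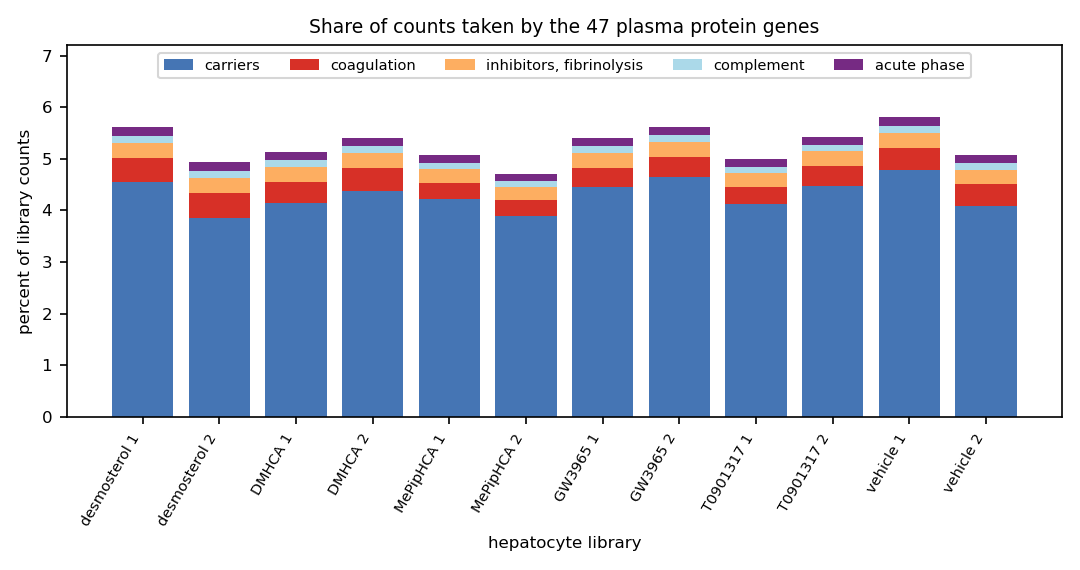
Percent of each hepatocyte library's counts taken by the 47 plasma protein genes, stacked by role group, for the 2 libraries of each ligand and of vehicle (rightmost). Totals lie between 4.71% and 5.801%, and the second MePipHCA library is the lowest.

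Per length, albumin was the most abundant of all genes in vehicle hepatocytes, at 9662 and 7512 RPKM. It was followed among the members by fetuin-A (Ahsg, a mineral-binding carrier) at 3082 ± 283 RPKM, transferrin (Trf) at 2691 ± 339, hemopexin (Hpx, a heme scavenger) at 1048 ± 243, Fgb at 1013 ± 37.6 and retinol-binding protein (Rbp4) at 903 ± 96.3 (SD, n = 2). Neighbours in this order did not all differ beyond their spread: the vehicle libraries overlapped between Ahsg and Trf, between Hpx and Fgb, between Saa2 (400.3 RPKM) and Serpina1b (373 RPKM), and between Fga (162.5 RPKM) and Fgg (156.8 RPKM). The lowest members were Masp1, a lectin-pathway protease of complement, at 4.19 ± 0.636 RPKM, factor VII (F7) at 5.604 ± 2.24, C8a at 5.98 ± 0.465 and the corticosteroid carrier Serpina6 at 6.44 ± 2.21. In vehicle macrophages 42 of the 47 members were below 1 RPKM, and 15 had no count in any of the 18 macrophage libraries. The 5 members above 1 RPKM in vehicle macrophages were Trf at 269 ± 10.4, F7 at 146 ± 6.19, factor X (F10) at 49.5 ± 1.62, C3 at 34.2 ± 5.42 and haptoglobin (Hp) at 1.65 ± 0.226 RPKM (SD, n = 3). Albumin, the defining hepatocyte product, was at 0.162, 0 and 0 RPKM there.

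**Figure D2:**
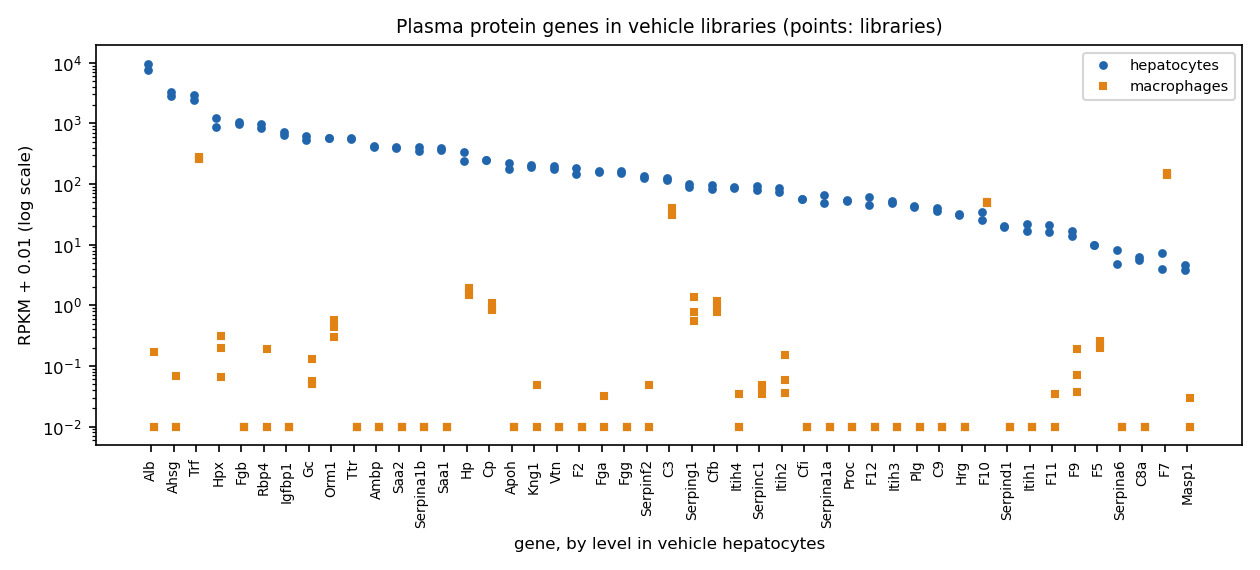
RPKM + 0.01 on a log axis for each plasma protein gene in vehicle hepatocytes (circles, 2 libraries) and vehicle macrophages (squares, 3 libraries), ordered by the hepatocyte level. Hepatocyte levels run from 8587 RPKM for Alb to 4.19 for Masp1, and only Trf, F7, F10, C3 and Hp exceed 1 RPKM in macrophages.

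Each ligand was compared with vehicle by edgeR's quasi-likelihood test over the 13176 genes that passed a filter on low counts, with Benjamini-Hochberg adjustment over all of them and a threshold of 0.05. All 47 members passed that filter, and the 5 comparisons share the same 2 vehicle libraries. MePipHCA lowered 8 of 47 members and raised 0, where 2.17% of all tested genes were called, 1.38% lower and 0.789% higher, and 18 members, all lower, had an unadjusted p under 0.05 (DESeq2 called 10 lower and 0 higher). The members' median log2 fold change with MePipHCA was -0.138, against 0.001 over all genes tested, and 6 of 47 had a positive value. T0901317 lowered 4 of 47 (0.941% of all genes were called, 0.455% lower and 0.486% higher; members' median -0.053, all genes 0) and GW3965 lowered 1 (0.478% of all genes were called, 0.114% lower and 0.364% higher; median -0.005, all genes 0.001), and neither raised any member. Among the members with an unadjusted p under 0.05 and a positive value were Igfbp1 and Itih1 with T0901317 and Igfbp1 and Itih2 with GW3965. With desmosterol 0 members were called by edgeR (0.364% of all genes in either direction), 6 had an unadjusted p under 0.05 and DESeq2 called 2, both higher. With DMHCA 0 members and 0 genes of any kind were called (0%), 2 members had an unadjusted p under 0.05, and DESeq2 called 0 members. The members' medians were -0.028 with desmosterol and -0.001 with DMHCA, against 0.001 and 0.002 over all genes. By edgeR, the unadjusted p was under 0.05 for 18, 12, 5, 6 and 2 members with MePipHCA, T0901317, GW3965, desmosterol and DMHCA. Of all 13176 genes tested, 1558, 1655, 1115, 1112 and 615 met it in the same order. The 2 members with DMHCA were near the share over all genes. The same all-gene counts apply beside those of the role groups below.

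**Figure D3:**
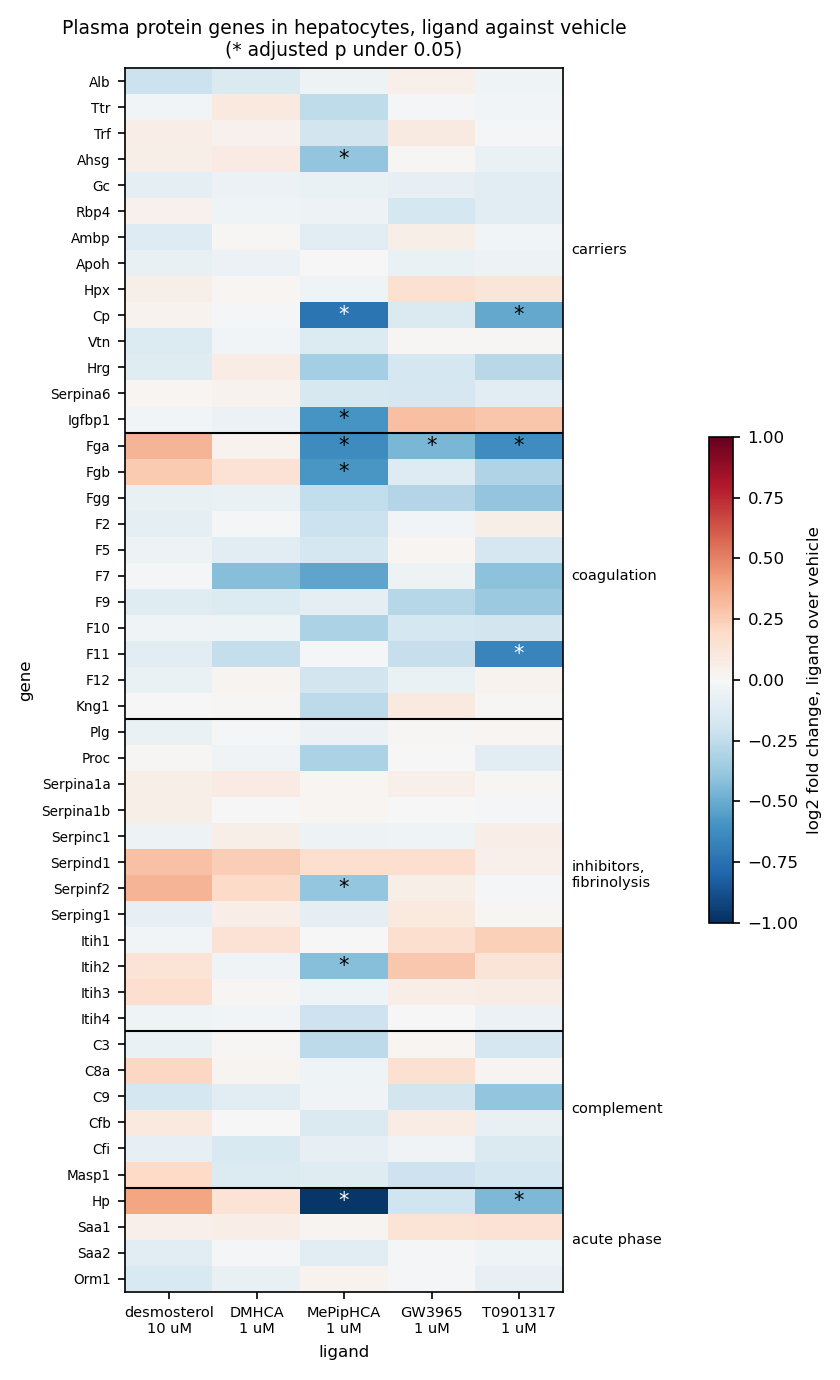
Log2 fold change over vehicle (color, blue lower, red higher) of the 47 plasma protein genes with each ligand in hepatocytes, grouped by role; stars mark an adjusted p under 0.05 (edgeR). MePipHCA carries 8 stars, T0901317 4 and GW3965 1, all on lower values; desmosterol and DMHCA carry 0.

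Haptoglobin, the acute phase protein that binds free hemoglobin, fell furthest with MePipHCA. Its gene, Hp, lies at chr8:109575128-109579172 on the minus strand. Hp was at 630.9 and 643 CPM (counts scaled to the TMM-adjusted library size) with desmosterol, 496.9 and 564.3 with DMHCA, 255.4 and 236.6 with MePipHCA, 394.2 and 446.3 with GW3965 and 335.1 and 371.5 with T0901317, against 553.7 and 410.8 CPM with vehicle. Both MePipHCA libraries lay below the other 10, and both desmosterol libraries above them. The log2 fold change with MePipHCA was -0.98 ± 0.11 (SE; adjusted p 7.59e-07, 1.97-fold lower), and it stayed called in all 12 alternative settings. With T0901317 it was -0.45 ± 0.10 (adjusted p 0.0258), and the call was lost without T0901317 replicate 1 (-0.38), T0901317 replicate 2 (-0.53) or vehicle replicate 1 (-0.22). With desmosterol it was 0.40 ± 0.10 (adjusted p 0.101), a value that was called without vehicle replicate 1 (0.63), by DESeq2 and with no filter on low counts, and that was 0.20 without vehicle replicate 2. None of the other acute phase genes was called with any ligand by edgeR. The log2 values of Saa1, Saa2 and Orm1 over vehicle ranged over the 5 ligands from 0.02 to 0.15, from -0.11 to -0.01 and from -0.15 to 0.03. Saa1 was at 283.5 and 288 CPM with MePipHCA, against 283.9 and 278 with vehicle, and the 95% interval of its log2 fold change was -0.15 to 0.20. Orm1, an acute phase carrier of drugs, was at 592 and 546.6 CPM with MePipHCA, against 551.4 and 561.1 with vehicle. Saa1 and Saa2, and Orm1 and its paralogs, are near copies, so reads may be split between them.

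Of the 11 coagulation genes, Fga and Fgb fell with MePipHCA. The other 9 were not called, though 6 of the 11 had an unadjusted p under 0.05. Fga was at 381.1 and 382.7 CPM with MePipHCA, against 603 and 576.2 with vehicle, and the log2 fold change was -0.63 ± 0.10 (adjusted p 0.000382). Fgb was at 1379 and 1280 CPM with MePipHCA, against 1890 and 2088 with vehicle (-0.58 ± 0.09, adjusted p 0.000227). The MePipHCA libraries lay below both vehicle libraries for either gene. Fgg, the third chain, was at 249 and 253.1 CPM with MePipHCA, against 299.8 and 294.4 with vehicle, and its log2 fold change of -0.24 (95% interval -0.46 to -0.03) was not called (adjusted p 0.318). With T0901317 Fga was at 331.6 and 435.4 CPM (-0.62 ± 0.10, adjusted p 0.000858). That call did not hold without T0901317 replicate 1 (-0.43). Fgg was at 208.4 and 243.8 CPM with T0901317 (-0.40, adjusted p 0.0624), and this value was called by DESeq2 and in 3 other settings but was -0.28 without T0901317 replicate 1. Fgb was at 1422 and 1808 CPM with it (-0.30 ± 0.09, adjusted p 0.125). The Fgb value was called with a replicate block, with no filter and without T0901317 replicate 2 (-0.49), and was -0.13 without T0901317 replicate 1. Fga also fell with GW3965, to 389.8 and 470.4 CPM (-0.46 ± 0.10, adjusted p 0.0314), but the call was lost without GW3965 replicate 1 (-0.32), vehicle replicate 1 (-0.42) or vehicle replicate 2 (-0.49). Desmosterol gave Fga at 749.6 and 746.4 CPM, both above the other 10 libraries, with a log2 value of 0.34 that was not called (adjusted p 0.197) except with no filter and with those groups fitted alone. DMHCA gave Fga at 559.8 and 646.5 CPM, on either side of the vehicle libraries (0.03 ± 0.10).

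Factor XI (F11, an intrinsic-pathway protease, chr8:45241168-45262031, minus strand) was at 34.14 and 31.12 CPM with T0901317, against 44.1 and 60.61 with vehicle. Both T0901317 libraries lay below the other 10 libraries, and the log2 fold change of -0.66 ± 0.15 was called (adjusted p 0.0249). The call was lost without T0901317 replicate 1 (-0.73), T0901317 replicate 2 (-0.60) or vehicle replicate 2 (-0.43). F11 was at 52.69 and 49.47 CPM with MePipHCA, inside the vehicle spread. Prothrombin (F2) was at 372.4 and 354.3 CPM with MePipHCA and 402.3 and 472.4 with T0901317, against 456.2 and 383.3 with vehicle, and its log2 fold change with MePipHCA was -0.21 (adjusted p 0.374). The log2 values of the 11 coagulation genes ranged from -0.63 to -0.02 with MePipHCA, 0 of them positive, with a median of -0.24. With T0901317 they ranged from -0.66 to 0.06 with a median of -0.30. F7, the protease that starts the extrinsic pathway, was at 7.28 to 16.25 CPM over the 12 libraries, and its 95% interval with MePipHCA was wide (-1.05 to 0.001).

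Among the 14 carriers, Cp, Igfbp1 and Ahsg fell with MePipHCA. Cp, the copper-carrying ferroxidase of plasma, was at 742.3 and 714 CPM with MePipHCA, against 1171 and 1245 with vehicle (-0.73 ± 0.10, adjusted p 1.39e-05). Insulin-like growth factor binding protein 1 (Igfbp1, chr11:7197787-7202546, plus strand), which insulin represses in liver, was at 863.1 and 863.8 CPM with MePipHCA, against 1329 and 1262 with vehicle (-0.59 ± 0.11, adjusted p 0.00201). Ahsg (chr16:22892015-22899451, plus strand) was at 4347 and 4165 CPM with MePipHCA, against 5905 and 5268 with vehicle (-0.39 ± 0.08, adjusted p 0.00613). The Ahsg call was lost without MePipHCA replicate 2 (-0.36) or vehicle replicate 1 (-0.31), while the Cp and Igfbp1 calls were kept in all 12 settings. Cp also fell with T0901317, to 738.6 and 954.9 CPM (-0.51 ± 0.09, adjusted p 0.00354), which did not hold without T0901317 replicate 1 (-0.34) or vehicle replicate 2 (-0.47). Igfbp1 took a positive value with T0901317 (0.28, adjusted p 0.275, 1290 and 1848 CPM) and with GW3965 (0.30, adjusted p 0.337, 1431 and 1761 CPM), neither of which was called. The T0901317 value rests on 1 library: it was called at 0.52 without T0901317 replicate 1 and was -0.009 without T0901317 replicate 2. With no filter on low counts both values were called. Albumin itself was at 22760 and 19660 CPM with MePipHCA, against 24200 and 19720 with vehicle (-0.05, 95% interval -0.23 to 0.13). With desmosterol it was at 21510 and 16400 CPM, a log2 value of -0.21 (95% interval -0.39 to -0.03, adjusted p 0.497), and it was called at -0.42 without desmosterol replicate 1 and with no filter, and was -0.03 without desmosterol replicate 2. Trf was at 6793 and 6971 CPM with MePipHCA, against 8307 and 7283 with vehicle (-0.18, adjusted p 0.322), and both MePipHCA libraries were below the other 10.

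**Figure D4:**
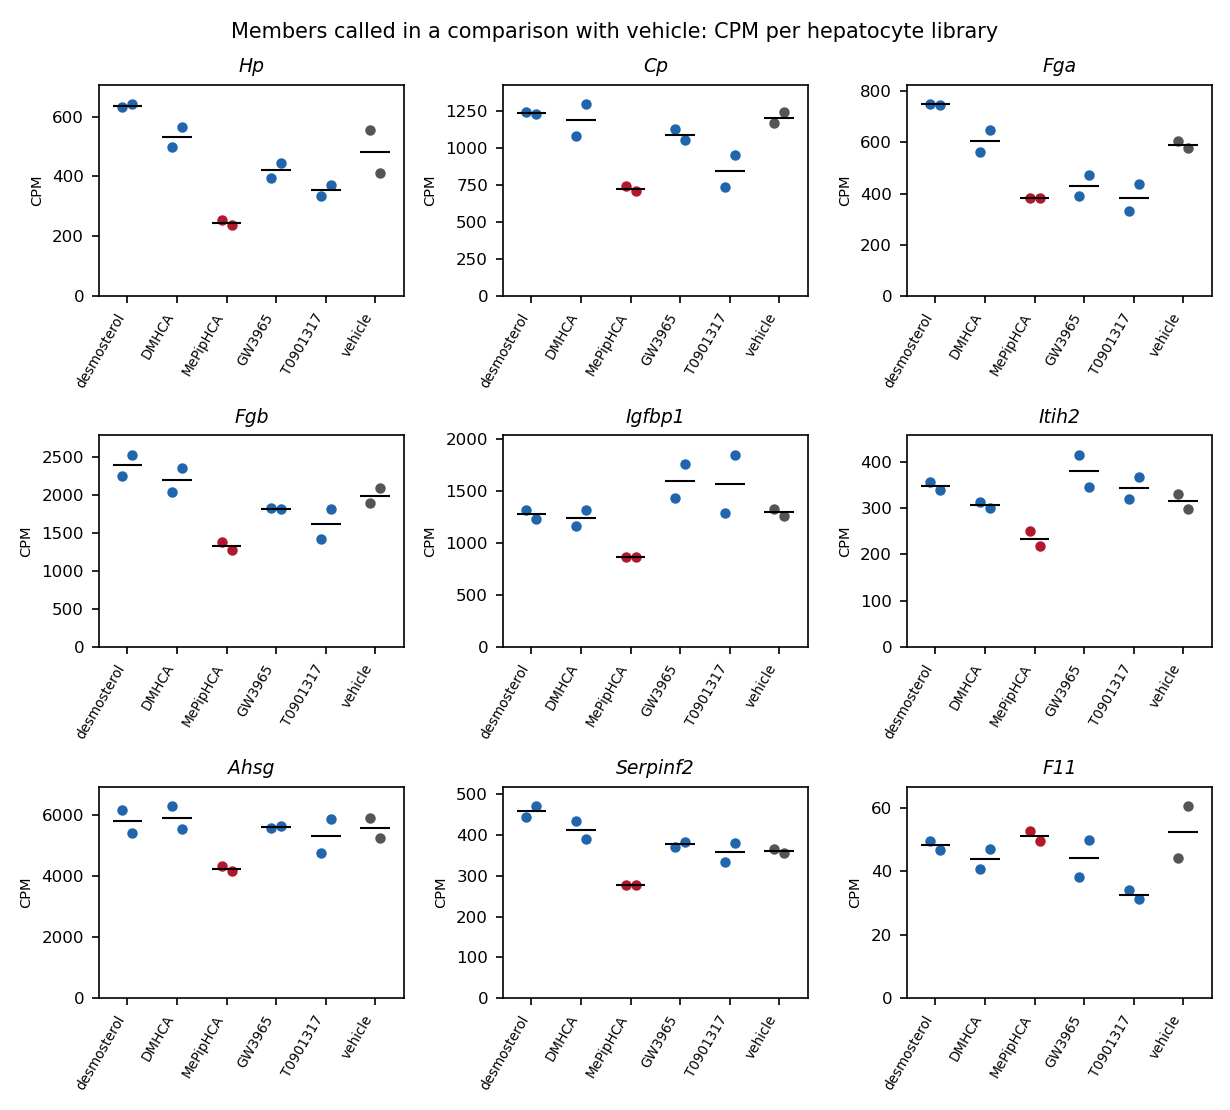
CPM per hepatocyte library (points, 2 per group, bars at the mean) for the 9 members called against vehicle with at least 1 ligand; vehicle is at the right and MePipHCA is in red. The MePipHCA libraries are below both vehicle libraries for all but F11, where the T0901317 libraries are the lowest.

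Of the 12 anticoagulant, fibrinolysis and protease inhibitor genes, Serpinf2 and Itih2 fell with MePipHCA, and 0 were called with any other ligand by edgeR. Serpinf2, the plasmin inhibitor alpha-2-antiplasmin (chr11:75431736-75439501, minus strand), was at 276.5 and 276.5 CPM with MePipHCA, against 366.5 and 355.8 with vehicle (-0.39 ± 0.09, adjusted p 0.00904), and lost its call without MePipHCA replicate 1 (-0.39), MePipHCA replicate 2 (-0.39) or vehicle replicate 1 (-0.36). Itih2, an inter-alpha-trypsin inhibitor heavy chain (chr2:10094591-10130683, minus strand), was at 250.2 and 218.4 CPM with MePipHCA, against 330.8 and 298.7 with vehicle (-0.43 ± 0.10, adjusted p 0.011), and lost its call without MePipHCA replicate 2 (-0.34) or vehicle replicate 1 (-0.35). Serpinf2 was also the member nearest to a call with desmosterol, at 444.1 and 471.6 CPM (0.34 ± 0.09, adjusted p 0.0776), and both libraries exceeded the other 10. Serpina1a and Serpina1b, near copies that encode alpha-1-antitrypsin, the elastase inhibitor, had log2 values between -0.02 and 0.09 with the 5 ligands. Serpina1a was at 125.1 and 124.4 CPM with MePipHCA, against 137.7 and 107.2 with vehicle (95% interval of the log2 fold change -0.19 to 0.23). Antithrombin (Serpinc1) had a log2 value of -0.05 with MePipHCA (95% interval -0.23 to 0.13). The unadjusted p was under 0.05 for 4 with MePipHCA and for 2, 2, 1 and 1 with desmosterol, DMHCA, GW3965 and T0901317.

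Of the 6 complement genes 0 were called with any ligand by edgeR. The unadjusted p was under 0.05 for 1 with MePipHCA, 2 with T0901317 and 0 with each of desmosterol, DMHCA and GW3965. C3, the central component of complement, was at 650.9 and 640.6 CPM with MePipHCA, against 791.1 and 757.3 with vehicle. Its log2 fold change of -0.26 (95% interval -0.43 to -0.09, adjusted p 0.109) was called under 3 of the 12 alternatives, no filter on low counts, DESeq2 and a fit of the 2 groups alone. C9, the pore-forming terminal component, was at 62.8 and 66.89 CPM with T0901317, below all other libraries, against 88.04 and 81.77 with vehicle (-0.39 ± 0.11, adjusted p 0.0781). The log2 values of the 6 genes ranged from -0.26 to -0.03 with MePipHCA and from -0.39 to 0.03 with T0901317.

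The fold change over vehicle was within 1.2-fold for 42 of 47 members with desmosterol, 46 with DMHCA, 35 with MePipHCA, 42 with GW3965 and 36 with T0901317. It was over 1.5-fold for 4 with MePipHCA, 2 with T0901317 and 0 with each of desmosterol, DMHCA and GW3965. The whole 95% interval was within 1.5-fold for 44 members with desmosterol, 45 with DMHCA, 38 with MePipHCA, 43 with GW3965 and 37 with T0901317. These fold counts were made for the members alone, so they do not set the members apart from other genes. By rank alone, both MePipHCA libraries lay below the other 10 libraries for 11 members (Ttr, Trf, Ahsg, Igfbp1, Fgb, Kng1, Proc, Serpinf2, Itih2, Itih4 and Hp), which is 23.4% of 47 against 6% of all tested genes. Both desmosterol libraries lay above the other 10 for 4 members (Fga, Serpinf2, Itih3 and Hp, 8.51% against 3.18% of all genes), and both T0901317 libraries below them for 2 (F11 and C9, 4.26% against 2.63%). Both vehicle libraries lay below the other 10 for 1 member (Serpind1, 2.13% against 1.59%). In the other directions the count was 0 members. Of all genes, 2.89% were lowest with desmosterol, 1.07% lowest and 0.994% highest with DMHCA, 6.18% highest with MePipHCA, 1.56% lowest and 1.7% highest with GW3965, 2.72% highest with T0901317 and 1.3% highest with vehicle.

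The ligands at 1 uM were also set against each other in 4 pairs. MePipHCA against DMHCA, which differ in the amine of the amide, gave 9 members lower and 0 higher, where 3.3% of all genes were called, 2.01% lower and 1.29% higher, and all 17 members with an unadjusted p under 0.05 were lower. Of all 13176 genes tested, 2100 had an unadjusted p under 0.05 in either direction. With scaling by library total alone 226 of all genes were called lower and 228 higher, instead of 265 and 170, and the members stayed at 9 lower. Hp was 2.16-fold lower with MePipHCA (log2 -1.11 ± 0.11, adjusted p 6.04e-08), followed by Fgb (-0.73 ± 0.09, adjusted p 7.94e-06), Cp (-0.71 ± 0.09, adjusted p 1.62e-05), Fga (-0.66 ± 0.10, adjusted p 0.000124), Serpinf2 (-0.58 ± 0.09, adjusted p 6.29e-05) and Igfbp1 (-0.53 ± 0.11, adjusted p 0.00372). Igfbp1 was not called by DESeq2 (adjusted p 0.0605), while the other 5 kept their call in every setting. Ahsg, Itih2 and Ttr were the remaining members called. Itih2 lost its call without DMHCA replicate 1 (-0.37) or MePipHCA replicate 2 (-0.30), and Ttr without DMHCA replicate 1 (-0.22), MePipHCA replicate 1 (-0.31), MePipHCA replicate 2 (-0.41) or with those groups fitted alone (-0.36).

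**Figure D5:**
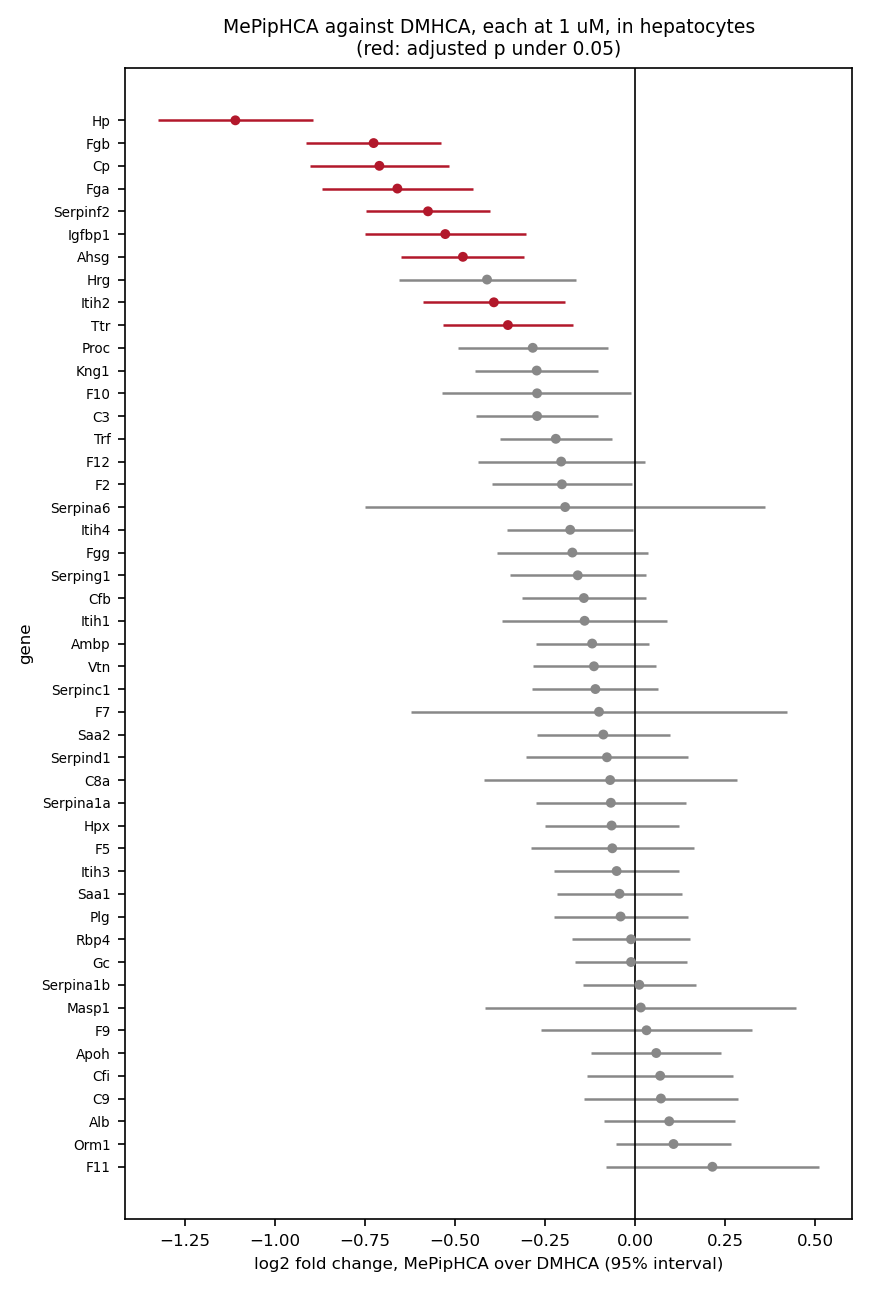
Log2 fold change of MePipHCA over DMHCA in hepatocytes for each of the 47 plasma protein genes, with its 95% interval; red marks an adjusted p under 0.05. The 9 called genes all lie left of 0, from Hp at -1.11 to Ttr at -0.35.

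GW3965 against T0901317 gave 0 called members and 0 called genes by edgeR (0%), with 4 members at an unadjusted p under 0.05 (Cp, F11, Hp and C3, each higher with GW3965) and 0 called by DESeq2. The largest was F11 at 0.43 (95% interval 0.13 to 0.74), so these intervals allow differences of that size. Of all 13176 genes tested, 667 had an unadjusted p under 0.05 between GW3965 and T0901317. DMHCA against T0901317 gave 4 members higher with DMHCA and 0 lower, where 0.987% of all genes were called, 0.44% higher and 0.546% lower. They were Fga (0.66 ± 0.10, adjusted p 0.000322), Hp (0.59 ± 0.10, adjusted p 0.0015), Cp (0.49 ± 0.09, adjusted p 0.00354) and Fgb (0.45 ± 0.09, adjusted p 0.00722). Cp and Fgb were lost without DMHCA replicate 2 (0.36 and 0.34), without T0901317 replicate 1 (0.32 and 0.28) and with those groups fitted alone, and Hp without T0901317 replicate 1 (0.51). MePipHCA against T0901317 gave 2 members higher and 5 lower, where 6.05% of all genes were called, 3.14% higher and 2.91% lower. Igfbp1 was lowest relative to T0901317 (-0.86 ± 0.11, adjusted p 4.03e-06), then Itih2 (-0.55 ± 0.10, adjusted p 0.00039) and Hp (-0.52 ± 0.10, adjusted p 0.0018), while F11 was higher with MePipHCA (0.64 ± 0.15, adjusted p 0.00681). Hp lost its call without MePipHCA replicate 2 (-0.47), F11 without MePipHCA replicate 1 (0.60) or T0901317 replicate 2 (0.58), and the Serpinf2 (-0.37 each), Ahsg (-0.36 and -0.30) and C9 (0.40 and 0.32) calls each lapsed without MePipHCA replicate 1 or 2. Serpinf2 (-0.27) and Ahsg (-0.16) were also lost without T0901317 replicate 2, and C9 without either T0901317 replicate (0.31 and 0.41). Fga was not called between MePipHCA and T0901317.

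A further 72 genes of plasma proteins outside the 47, listed by their textbook role, gave 65 that were tested. MePipHCA lowered 1 of the 65, Igfbp4 (-0.49), and T0901317 lowered 1, insulin-like growth factor 1 (Igf1, -0.49), and raised 1. The shares called were 1.54% with MePipHCA and 3.08% with T0901317, against 2.17% and 0.941% of all genes. GW3965 raised 1 (1.54%, against 0.478% of all genes), and desmosterol and DMHCA changed 0 by edgeR. The gene raised by GW3965 (3.38) and T0901317 (2.43) was Cd5l, at 12.6 ± 2.66 and 6.48 ± 2.96 CPM, against 1.15 ± 0.349 with vehicle (SD, n = 2), and it encodes a protein that macrophages secrete. Clec4f, a Kupffer cell receptor, was at 13.3 and 7.75 CPM with GW3965, against 2.1 and 0.605 with vehicle (2.81, adjusted p 0.00134). It was the only call with GW3965 among the 8 macrophage and Kupffer cell markers tested, whose median log2 fold change was 0.073. With T0901317 0 of these 8 markers were called (median -0.191). The part of such cells in the Cd5l value was not tested. Against DMHCA, MePipHCA lowered 5 of the 65: Hamp (hepcidin, the iron-regulating hormone, -1.10), Igfbp4 (-0.72), Itih5 (-0.51), Hgfac (-0.44) and Mbl2 (-0.41). That is 7.69% of the 65, against 3.3% of all genes called in either direction. Against T0901317, MePipHCA gave 4 of the 65 higher (Mug2, Igf1, Apcs and Fn1) and 1 lower (Itih5), and DMHCA gave 5 higher (Hamp, Igfbp4, Igf1, Mbl2 and Fn1) and 1 lower (Cd5l). With MePipHCA this is 7.69% of the 65, near the 6.05% of all genes called. With DMHCA it is 9.23%, against 0.987% of all genes. In the direct targets of LXR listed as a check, GW3965 and T0901317 each raised 5 of 6, with Abca1 at 2.24 and 2.41 and Scd1 at 2.30 and 2.42. MePipHCA lowered Abca1 (-0.79), the other 5 not being called. With desmosterol and with DMHCA 0 of the 6 were called by edgeR, and 1 had an unadjusted p under 0.05 with each.

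Among 16 transcription factors of the hepatocyte, Hnf4a fell with MePipHCA (380.8 ± 0.726 CPM, against 505 ± 13.2 with vehicle; -0.41, adjusted p 0.00274) and rose with desmosterol (652.6 ± 34.0 CPM; 0.37, adjusted p 0.0232). Prox1 fell with MePipHCA (-0.62, adjusted p 0.011), and 0 of the 16 were called with DMHCA, GW3965 or T0901317. Of 15 acute phase signalling genes 1 was called over the 5 ligands, the interleukin-6 receptor chain Il6ra, which fell with T0901317 (-0.81, adjusted p 0.0111). Of 12 genes of the amino acid and endoplasmic reticulum stress response, MePipHCA raised Ddit3 (0.92), Trib3 (0.78), Xbp1 (0.45) and Hspa5 (0.36), and T0901317 raised Chac1 (0.62) and Trib3 (0.58). Of 12 secretory pathway genes, MePipHCA raised Sec24d (0.49), Sec23a (0.49) and Sec31a (0.45), which form the coat of vesicles leaving the endoplasmic reticulum, and no other ligand changed any by edgeR. Of 8 insulin and FOXO targets the only other call than Igfbp1 was Foxo1, which rose with T0901317, and of 10 genes of hepatocyte dedifferentiation in culture 0 were called against vehicle by edgeR. Between ligands, MePipHCA gave 4 of these 10 lower than DMHCA (Actb, Krt8, Krt18 and Krt19), and 3 lower (Krt8, Krt18 and Krt19) and 2 higher (Sox9 and Spp1) than T0901317. The relation of these genes to the plasma protein genes was not tested.

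Hepatocyte markers outside the 47 (12 genes, mostly Apob and Apoa1) summed to 9880 and 9680 CPM with MePipHCA, against 11700 and 11500 with vehicle. The sums were 11200 to 12600 CPM in the 8 libraries of the other ligands. Apoa1 was at 3920 and 3920 CPM with MePipHCA, against 4900 and 4690 with vehicle, and Apob at 5230 and 5020, against 5720 and 5960. The part of these markers in the MePipHCA result was not tested. With MePipHCA 3 of the 12 were called lower (Hnf4a, Apoa1 and Cyp2e1) and 0 higher. GW3965 raised 1 of the 12, Apoa1, and desmosterol raised 1, Hnf4a, while 0 were called with DMHCA or T0901317. Markers of other cell types summed over the 12 libraries to 293 to 450 CPM for macrophages and Kupffer cells (9 genes, mostly Cd68 and Cd14), 275 to 481 for cholangiocytes (5 genes, mostly Spp1 and Sox9), 47.8 to 61.8 for endothelial cells, 2.11 to 4.37 for stellate cells and at most 0.233 and 0.656 for neutrophils and lymphocytes. With MePipHCA 0 of the tested markers of these cells were called against vehicle by edgeR. Of the 4 cholangiocyte markers tested, Krt19 was lower with MePipHCA than with DMHCA, and Krt19 was lower and Sox9 and Spp1 higher with MePipHCA than with T0901317. In bulk RNA fewer cells of a type and less RNA per cell cannot be told apart.

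In macrophages 9 of the 47 members passed the filter, and 6 of those fell with MePipHCA, where 35.4% of all 11544 tested genes were called, 18.3% lower and 17.2% higher. C3 was at 63.67, 67.46 and 67.9 CPM with MePipHCA, against 175.8, 237.9 and 182 with vehicle (-1.58 ± 0.12, adjusted p 1.43e-14), and the groups did not overlap. Trf was at 517.1, 519.8 and 517.9 CPM with MePipHCA, against 705, 690.9 and 733.6 with vehicle (-0.45 ± 0.06, adjusted p 6.68e-08). F7 fell by 0.31 on the log2 scale (adjusted p 0.000136). Hp (-1.57), Serping1, the C1 inhibitor (-1.57), and Cp (-1.06) were at under 5 CPM in every library of both groups. Hp lost its call without MePipHCA replicate 1 (-1.18), Cp likewise (-0.89), and Serping1 without MePipHCA replicate 2 (-1.26), MePipHCA replicate 3 (-1.09) or vehicle replicate 2 (-1.07) and by DESeq2, its libraries overlapping between the groups. Markers of stellate cells and fibroblasts moved in the same libraries. All 7 tested of the 8 fell with MePipHCA (median log2 fold change -1.554), and 6 of the 7 with DMHCA (median -0.61). Their summed level was 86.2 to 103 CPM with MePipHCA and 157 to 221 CPM with DMHCA, against 259 to 333 CPM with vehicle. Col1a2 was the most abundant of them, and Lrat, the defining stellate cell gene, was at 0 in the 3 MePipHCA libraries and at most 0.0625 CPM with vehicle. Macrophage markers (mostly Lyz2 and Cd68) summed to 12100 to 12300 CPM with MePipHCA, against 15200 to 15300 with vehicle. Lyz2 and Csf1r lay below vehicle in every MePipHCA library, while Cd68 and Cd14 overlapped vehicle. The part of stellate cells, fibroblasts or macrophages in the falls of C3, Serping1, Cp and Hp was not tested. DMHCA also lowered C3 (127.3, 168.5 and 149.2 CPM; -0.42 ± 0.11, adjusted p 0.00555) and raised Trf (0.22, adjusted p 0.0113), where 11.7% of all genes were called, 5.9% lower and 5.8% higher. The C3 call was lost without DMHCA replicate 1 (-0.33) or vehicle replicate 2 (-0.26) and by DESeq2, and the Trf call without DMHCA replicate 3 (0.15) or vehicle replicate 2 (0.20).

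Desmosterol raised 1 of the 9 in macrophages, F7 (0.23, adjusted p 0.0114; 9.5% of all genes were called, 4.93% higher and 4.57% lower). That call was lost without desmosterol replicate 2 (0.11) or vehicle replicate 2 (0.20), and with those groups fitted alone. GW3965 lowered 1, F5, at 0.2159, 0.1453 and 1.122 CPM, against 2.03, 1.937 and 1.604 with vehicle (-1.66 ± 0.52, adjusted p 0.0261; 13.2% of all genes were called, 6.69% lower and 6.54% higher). That call rests on very few counts and was lost without GW3965 replicate 1 (-1.41), GW3965 replicate 2 (-1.21), vehicle replicate 1 (-1.60) or vehicle replicate 2 (-1.62), and by DESeq2. T0901317 lowered F7 (-0.25, adjusted p 0.00535) and F10 (-0.21, adjusted p 0.016) and raised Trf (0.18, adjusted p 0.0352), where 12.8% of all genes were called, 6.55% lower and 6.29% higher. F10 was lost without T0901317 replicate 3 (-0.15), and Trf without any 1 T0901317 replicate (0.15 to 0.20), without vehicle replicate 1 (0.18) or without vehicle replicate 2 (0.16), and with scaling by library total alone (0.15). Scaled by library total alone, 399 of all macrophage genes were called higher and 714 lower with desmosterol (569 and 528 with TMM), 459 and 993 with DMHCA (669 and 681) and 567 and 1002 with GW3965 (755 and 772). They were 1644 and 2321 with MePipHCA (1980 and 2111) and 594 and 890 with T0901317 (726 and 756).

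The response of the 9 members was compared between the cell types in a joint fit of 13700 genes. C3 differed with MePipHCA: its log2 fold change was -0.26 in hepatocytes and -1.58 in macrophages, a difference of 1.31 ± 0.17 (adjusted p 1.74e-07), where 9.66% of all genes were called. F5 differed with GW3965, at 0.02 in hepatocytes and -1.66 in macrophages (1.69 ± 0.47, adjusted p 0.0344; 3.11% of all genes). The stellate cell and fibroblast markers that fell with MePipHCA in macrophages summed to 2.11 to 4.37 CPM in the hepatocyte libraries, and their part in the C3 difference was not tested. Cell type, culture medium and the dates in the sample titles cannot be told apart in this comparison.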

How the data were processed

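Per the submitters' processing notes, reads were handled with STAR and HOMER on mm10, with no versions given. The authors deposited a raw count table per cell type, exon read counts per RefSeq transcript, 1 transcript per gene per the file headers, and an RPKM table (columns named FPKM). No strand option stands in the headers although the libraries mark strand. RPKM served only to set levels of genes side by side, and it rests on another transcript than the counts for 8 of the 47 members in hepatocytes and 6 in macrophages, F10 among these 6.

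Counts were filtered with filterByExpr, scaled by TMM and tested with edgeR 4.0.16 (R 4.3.3) by a quasi-likelihood F test of all 6 groups of a cell type together, with Benjamini-Hochberg adjustment over 13176 hepatocyte or 11544 macrophage genes at 0.05. SE is the fold change over the square root of F, and intervals are 95%. CPM is per TMM-scaled library. Alternatives were DESeq2 1.42.0, other scalings, no filter, a replicate block, the groups compared alone and leaving out each library. The test was checked on simulated data. Named genes are 13 fixed members (Alb, Trf, Fga, Fgb, Fgg, F2, Serpina1a, C3, Hp, Orm1, Saa1, Saa2 and Igfbp1) and, by size of change among those called, up to 4 per role group against vehicle, 6 per ligand pair, 4 per ligand in macrophages and 3 per other list. Any further gene was named after its values were seen. The members and the other gene lists were chosen with earlier results of these data known. No pair of replicates agreed within sampling noise. In hepatocytes the chi-square per degree of freedom was 13.2 for the DMHCA pair and 5.66 to 7.58 for the other groups. The 0 genes called with DMHCA against vehicle thus come from the group whose replicates differed most. Intervals cover the spread between libraries only.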

Additional observations from a re-analysis of the deposited data

Results flagged for a closer look

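The response of C3 to MePipHCA differed between the cell types, by 1.31 on the log2 scale (hepatocytes minus macrophages; edgeR interaction, adjusted p 1.74e-07). In the macrophage libraries the summed stellate cell and fibroblast markers were at 86.2 to 103 CPM with MePipHCA, against 259 to 333 CPM with vehicle, and at 2.11 to 4.37 CPM in the hepatocyte libraries. Their part in this difference was not tested. The response of F5 to GW3965 differed by 1.69 (adjusted p 0.0344), at under 3 CPM in the macrophage libraries of both groups. The hepatocyte and macrophage samples also differ in medium and title date, which cannot be told apart from cell type.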

How the results depend on the processing

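No direction of a called value reversed. In hepatocytes the count of members called moved by over 1.5 times with no filter on low counts (5 with desmosterol, 2 with GW3965, 7 with T0901317 and 1 for GW3965 against T0901317), with DESeq2 (2 with desmosterol) and with the 2 groups fitted alone (2 with desmosterol, 2 for DMHCA against T0901317). Of all 17946 genes without the filter, 66 were called higher and 73 lower with desmosterol. They were 89 and 74 with GW3965, 115 and 141 with T0901317, and 5 and 4 for GW3965 against T0901317. DESeq2 called 54 and 43 of 9344 with desmosterol. Fitted alone, 36 and 29 of 12268 were called with desmosterol, and 23 and 40 of 12460 for DMHCA against T0901317. In macrophages it moved to 0 with desmosterol and 2 with GW3965 when the groups were fitted alone, to 2 with GW3965 without the filter, and to 1 with DMHCA and 0 with GW3965 by DESeq2. Fitted alone, 398 of all genes were called higher and 377 lower with desmosterol, and 842 and 842 with GW3965. Without the filter they were 712 and 780 with GW3965. By DESeq2 they were 600 and 551 with DMHCA and 695 and 654 with GW3965. Leaving out 1 library gave 0 to 1 members with desmosterol, 0 with DMHCA, 5 to 8 with MePipHCA, 0 to 1 with GW3965 and 1 to 3 with T0901317 in hepatocytes. It gave 7 to 10 for MePipHCA against DMHCA, 0 for GW3965 against T0901317, 2 to 4 for DMHCA against T0901317 and 3 to 10 for MePipHCA against T0901317. In macrophages it gave 0 to 1 with desmosterol, 0 to 3 with DMHCA, 4 to 6 with MePipHCA, 0 to 1 with GW3965 and 1 to 3 with T0901317. Replicate numbers are not stated to pair samples. Correlations of deviations were -0.026 to 0.084 in hepatocytes and, for each ligand with vehicle, -0.056 to 0.16 in macrophages. With a replicate block 0 members were called with desmosterol, 0 with DMHCA, 8 with MePipHCA, 1 with GW3965 and 6 with T0901317 in hepatocytes, 10 for MePipHCA against DMHCA, 9 for MePipHCA against T0901317, 4 for DMHCA against T0901317 and 0 for GW3965 against T0901317. In macrophages the block gave 1 with desmosterol, 2 with DMHCA, 6 with MePipHCA, 1 with GW3965 and 3 with T0901317. The causes were not tested. These counts of called members take both directions together. With 1 library left out, the count of all genes called moved as well in most comparisons. A shift in called members there does not concern the members alone. With 2 libraries per group, a single library decides several calls, as given beside them. All 4 members lowered with T0901317 lost their call without T0901317 replicate 1 (Fga -0.43, Cp -0.34, Hp -0.38 and F11 -0.73). Igfbp1 was at 0.52 in that setting.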

Other observations

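In macrophages 19 of the 72 other plasma protein genes were tested. Cd5l and Cfp, the complement regulator properdin, rose with each of the 5 ligands, which share the vehicle libraries, and Igf1 rose with desmosterol, DMHCA, GW3965 and T0901317 (edgeR, adjusted p under 0.05).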
